A study of Mus musculus with 9 samples.

Results

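Levels of 10 genes of plasma membrane repair were compared in the mouse pancreatic ductal adenocarcinoma line Panc02 and in a pair of CRISPR-edited clones of it. The genes were the ferlins Dysf and Myof, the calpains Capn6, Capn1 and Capn2, the annexins Anxa1, Anxa2, Anxa5 and Anxa6, and the caveolar coat gene Cav1. They were found by gene symbol, 10 of the 49671 genes in the count table, and all 10 passed the filter on low counts that left 15766 genes. The list was chosen by values from these same libraries, Dysf being among the largest differences between KO_1E7 and the parental line, and which comparison put each other gene on it is not recorded. The values of the 10 genes are therefore given as a description, with no p-value.

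Poly(A) RNA was sequenced in bulk from 3 groups of 3 libraries. The parental group was the unedited line, whose genotype label is wild type. KO_1E7 was a clone with the genotype label VPAC2 knock out, VPAC2 being the vasoactive intestinal peptide receptor that Vipr2 encodes. CRISPR_1G2 was a clone whose genotype label is CRISPR-wild type, although the design text speaks of both clones as knockout cells. Each edited group was 1 clone, and KO_1E7 was the only clone with a knockout label, so an effect of the genotype and a property of that clone cannot be told apart. In the column names of the count table the first and second library of each group carry a date and the third the word NSG. Parental 1 and KO_1E7 1 share a date, parental 2 and CRISPR_1G2 1 share another, and KO_1E7 2 and CRISPR_1G2 2 each have their own. What the dates and NSG stand for is not stated, nor whether libraries came from separate cultures, so p-values measure only the spread between libraries, which may be technical.

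A tear in the plasma membrane lets in calcium, which starts the resealing. Dysferlin and myoferlin, large tail-anchored proteins with many calcium-binding C2 domains, bring membrane vesicles to the wound, calpains cut cytoskeletal and other proteins there, dysferlin among them, and annexins bind the exposed acidic lipids and cap the lesion. Caveolin-1 is the main coat protein of caveolae, which are taken in during resealing and buffer membrane tension. Loss of dysferlin causes muscular dystrophy in mice and humans, and the gene is known chiefly from skeletal muscle and monocytes, while myoferlin and several annexins are abundant in many carcinoma lines.

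Gene counts ran from 27898705 to 51878289 per library. Levels below are CPM, the counts of a gene per 1000000 gene counts of its library, with library totals scaled by edgeR's TMM factors, so 1 count corresponded to a few hundredths of 1 CPM. The gene CT010467.1 held 15.3% of the gene counts of parental library 3 and 0.465 to 1.04% of those of the other 8. On the first principal component of log2 CPM, which held 42.7% of the variance, parental 3 stood at -58.2 and CRISPR_1G2 3 at -86.3, apart from the other libraries of their groups (-9.88 and 6.48, and -15.1 and -19.2). KO_1E7 lay from 47.1 to 68.3, and its own NSG library stood at 68.3, beside KO_1E7 1 at 66.9. Vipr2, the targeted gene, had 6, 3 and 12 counts in the parental libraries, 1, 2 and 1 in KO_1E7 and 1, 13 and 12 in CRISPR_1G2, so its RNA was near the limit of detection in every library. The 8 ductal epithelial markers summed to 1347 to 2038 CPM in the parental line, 1273 to 2094 in KO_1E7 and 882 to 2100 in CRISPR_1G2, most of it from Krt8 and Krt18. Krt7, another ductal keratin, was at 25.9 ± 7.06, 4.58 ± 0.666 and 43.0 ± 27.1 CPM (SD, n = 3). It was the 1 marker of the 8 called lower in KO_1E7 against parental (edgeR adjusted p = 0.0323, Benjamini-Hochberg), and none was called higher. Epcam, not called, was at 5.82 ± 1.98, 1.73 ± 1.48 and 12.5 ± 6.55 CPM. Its highest KO_1E7 library (3.43 CPM) was below the lowest parental (3.53) and the lowest CRISPR_1G2 library (4.95). Of all genes, 34.4% did not overlap between KO_1E7 and the parental line. Cdh1 went the other way from Krt7 and Epcam, at 15.6 ± 5.89, 29.6 ± 16.3 and 11.2 ± 5.24 CPM. Against parental, the KO_1E7 means of Krt18, Krt19, Sox9 and Muc1 were also lower and that of Krt8 higher, with overlapping libraries.

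Dysf was at the edge of detection in the parental line and in CRISPR_1G2 and clearly present in KO_1E7. Its level was 0.601, 1.16 and 0.945 CPM in parental libraries 1 to 3, 21.3, 13.7 and 14.4 CPM in KO_1E7 and 0.581, 1.01 and 1.13 CPM in CRISPR_1G2. The lowest KO_1E7 library stood well above the highest library of either other group, while the parental and CRISPR_1G2 values interleaved. Group means were 0.902 ± 0.282, 16.5 ± 4.21 and 0.906 ± 0.288 CPM (SD, n = 3). The fitted log2 fold change was 4.19 ± 0.37 (SE) for KO_1E7 against parental, 4.17 ± 0.37 for KO_1E7 against CRISPR_1G2 and 0.01 ± 0.35 for CRISPR_1G2 against parental. In bulk RNA a few cells with much Dysf and many cells with a little cannot be told apart.

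The counts behind Dysf were 98 over the 3 parental libraries, 1959 over KO_1E7 and 85 over CRISPR_1G2. Summed and corrected for library size, the KO_1E7 level was 17.9 times the parental level (exact 95% interval 14.6 to 22.1, counting error only) and 17.4 times that of CRISPR_1G2 (14.0 to 21.9). For CRISPR_1G2 against parental the ratio was 1.03 (0.758 to 1.39). Ranked from the highest log2 fold change among the 15766 genes, Dysf was number 12 for KO_1E7 against parental and number 69 for KO_1E7 against CRISPR_1G2. That Dysf was among the genes with the largest differences restates how the list was chosen and is no separate result. It was not the foremost of them.

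**Figure D1:**
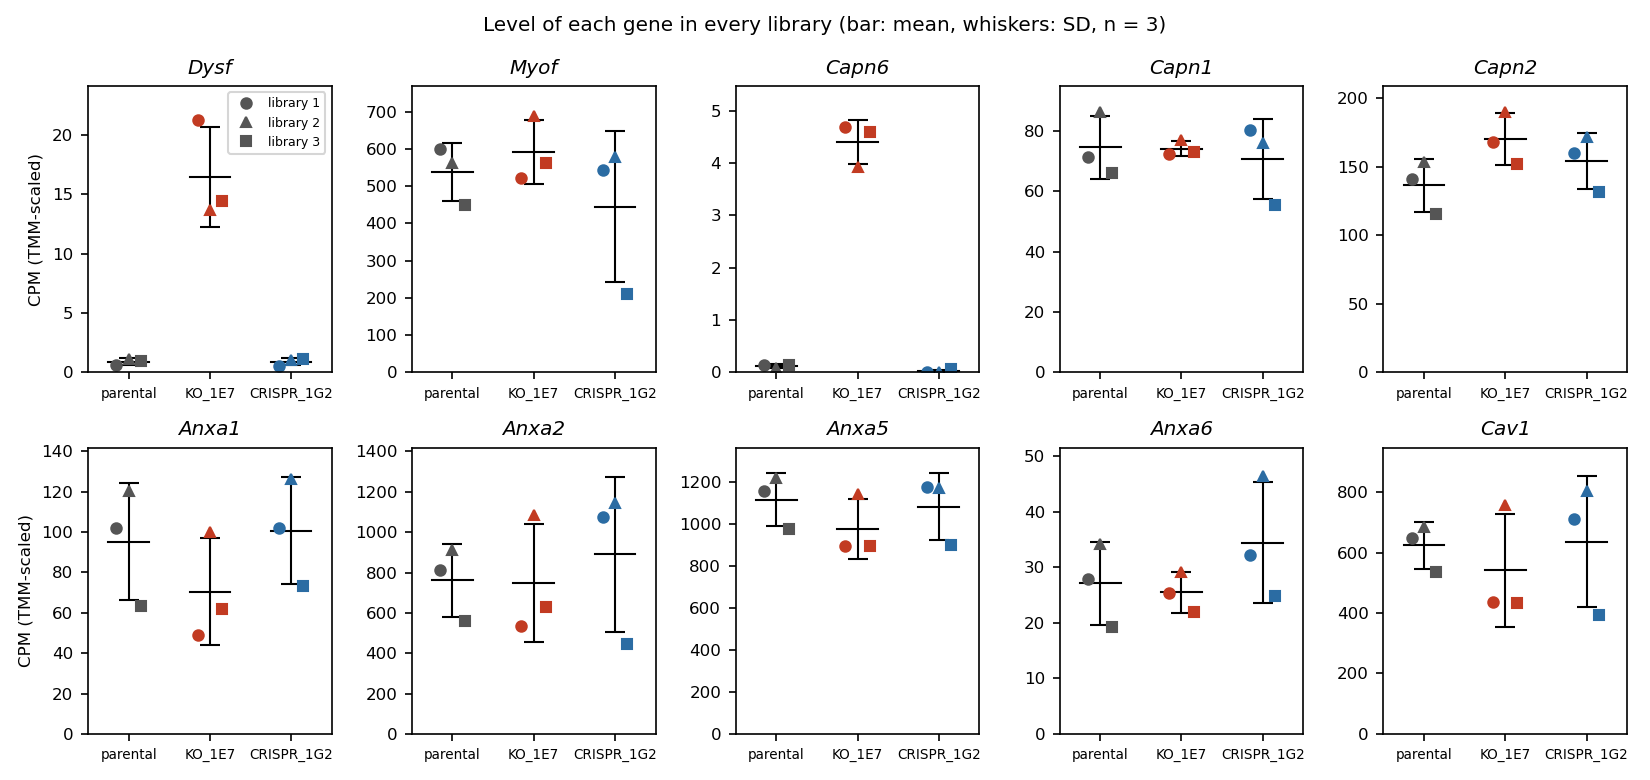
Level of each of the 10 genes in the 9 libraries, in CPM on a linear axis from 0 that differs between genes, with 1 point per library, a bar at the group mean and whiskers of 1 SD (n = 3). Dysf (13.7 to 21.3 CPM) and Capn6 (3.92 to 4.69 CPM) stand apart in KO_1E7, and the other 8 genes overlap between the groups.

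Dysf lies on the forward strand of chromosome 6 (GRCm38, chr6:84008590-84211060). RefSeq gives it 2 transcription starts and both fall inside exons of the deposited annotation. Their windows, 250 bases before to 50 after the start, are printed because Dysf was at 0.902 CPM in the parental line and 16.5 CPM in KO_1E7, and the counts per gene cannot say which start the KO_1E7 transcripts used. The windows span chr6:84008348-84008647 and chr6:84019136-84019435 of GRCm38.p6, forward strand, from RefSeq, with the GC box in capitals:
Dysf, first start: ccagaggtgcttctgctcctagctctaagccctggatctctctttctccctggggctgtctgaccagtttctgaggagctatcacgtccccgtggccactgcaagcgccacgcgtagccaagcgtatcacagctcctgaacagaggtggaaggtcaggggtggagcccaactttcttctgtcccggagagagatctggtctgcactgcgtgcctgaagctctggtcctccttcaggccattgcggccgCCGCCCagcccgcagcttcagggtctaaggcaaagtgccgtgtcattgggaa
Dysf, second start: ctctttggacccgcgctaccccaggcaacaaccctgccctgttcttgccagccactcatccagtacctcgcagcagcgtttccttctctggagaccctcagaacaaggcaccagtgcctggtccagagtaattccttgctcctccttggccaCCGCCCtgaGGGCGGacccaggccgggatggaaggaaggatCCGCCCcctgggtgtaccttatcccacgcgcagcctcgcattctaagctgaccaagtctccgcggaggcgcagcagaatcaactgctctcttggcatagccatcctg
The capitals mark GGGCGG, the GC box bound by Sp1-family factors, or its reverse complement, found once in the first window and 3 times in the second. Neither window held TGANTCA (the AP-1 site), TGACGTCA (the cyclic AMP response element, CRE), GGAATG (the TEAD site) or TATAAA (the TATA box) on either strand. Also searched, and left in lower case, were the CRE core TGACG, in neither window, and the E-box CANNTG, with 1 match in the second window. The GC contents were 60.0 and 61.0%, with 13 and 14 CpG dinucleotides, against medians of 52.7% and 7 over all 32851 RefSeq windows of the same length. Both windows lay between the lower and upper quartiles, 45.7 to 61.7% GC and 3 to 20 CpG. Of all windows, 35.7% held the GC box, so a match is common, and it shows letters and not a bound site.

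The genes tested on both sides of Dysf were compared. Upstream, Zfp638 and Gm43920 did not pass the test in any comparison. Downstream, Cyp26b1, which encodes an enzyme that clears retinoic acid, lies on the reverse strand (chr6:84571414-84593908). Cyp26b1 was at 0.301, 1.10 and 0.584 CPM in the parental libraries, 18.8, 8.05 and 9.88 CPM in KO_1E7 and 0.763, 1.48 and 1.43 CPM in CRISPR_1G2, so KO_1E7 did not overlap either other group. It rose by a log2 fold change of 4.20 ± 0.56 against parental (adjusted p = 0.0117, edgeR quasi-likelihood test, Benjamini-Hochberg over all genes) and 3.31 ± 0.53 against CRISPR_1G2 (adjusted p = 0.00731). Without KO_1E7 3 the call against parental ended (adjusted p = 0.0560). Exoc6b, the next gene, which encodes a subunit of the vesicle-tethering exocyst complex, had a log2 fold change of 0.29 ± 0.12 against parental (adjusted p = 0.181). Over the tested genes of chromosome 6 the median log2 fold change for KO_1E7 against parental was 0.07, and the chromosome as a whole showed no such difference.

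Dysf overlaps 3 annotated genes, Gm33024, Gm7498 and Gm15475, whose counts over all 9 libraries were 1, 8 and 2, few beside its 1959 counts in KO_1E7. Markers of the tissues in which Dysf is best known were read in the same libraries. The 15 skeletal muscle markers summed to 4.84 to 13.6 CPM in the parental line, 3.79 to 9.94 in KO_1E7 and 8.79 to 12.4 in CRISPR_1G2. Myf5 had 0 counts in all 9 libraries, and none of the 5 that were tested was called between KO_1E7 and the parental line. Tnnt3, not tested, had 1, 2 and 2 counts in the parental libraries, 9, 18 and 12 in KO_1E7 and 2, 3 and 4 in CRISPR_1G2. Ttn, which was tested, had its lowest mean in KO_1E7, at 3.55, 1.33 and 3.16 CPM, with overlapping libraries. The 9 myeloid markers summed to 31.1 to 57.8 CPM in the parental line, 58.3 to 66.3 in KO_1E7 and 54.7 to 91.4 in CRISPR_1G2, led by Cd14, with none called between KO_1E7 and the parental line. Ptprc, the pan-leukocyte marker CD45, had 72, 1 and 3 counts in the parental libraries, 65, 135 and 63 in KO_1E7 and 106, 69 and 83 in CRISPR_1G2, and Tyrobp had 27, 0 and 0, then 25, 38 and 28, then 21, 16 and 25. Cd68 went the other way, at 5.04 ± 2.67 CPM in the parental line, 2.63 ± 0.519 in KO_1E7 and 4.94 ± 2.92 in CRISPR_1G2, with overlapping libraries. The part of muscle or myeloid transcripts in the level of Dysf was not tested. The 6 endothelial markers summed to at most 2.75 CPM in any library, and the 8 fibroblast markers summed to 57.3 to 140.3 CPM over all libraries.

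The genes whose log2 CPM followed Dysf most closely over the 9 libraries were Mxd4, a MAX-binding repressor gene (Pearson r = 0.983), Apold1 (0.982), Tmem59 (0.980), Pon3, a paraoxonase gene (0.979), and Zfp866 (0.979). These coefficients describe 9 libraries that share 3 groups, and any gene that differs in KO_1E7 scores high. Mxd4 was at 7.82 ± 1.69 CPM in the parental line, 34.5 ± 8.77 in KO_1E7 and 7.05 ± 1.20 in CRISPR_1G2 (SD, n = 3). Among the 10 genes, Capn6 was the nearest to Dysf (r = 0.96), Myof stood at 0.26 and Anxa1 at -0.56.

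Myof, the ferlin most like Dysf, was abundant throughout and is on the reverse strand of chromosome 19 (chr19:37899036-38043577). Its level was 599, 562 and 450 CPM in the parental libraries, 523, 688 and 563 CPM in KO_1E7 and 543, 580 and 211 CPM in CRISPR_1G2. All 3 groups overlapped, and CRISPR_1G2 3 was below every other library. The log2 fold change was 0.14 ± 0.33 for KO_1E7 against parental, 0.41 ± 0.33 against CRISPR_1G2 and -0.27 ± 0.33 for CRISPR_1G2 against parental, none of them more than a little above its SE. Dysf reached 1.98 ± 0.505 CPM per kb of exon in KO_1E7, where Myof stood at 83.2 ± 12.1 CPM per kb, so Myof remained the more abundant ferlin RNA in every library. The Myof window (chr19:38043528-38043827, reverse strand, GRCm38.p6, RefSeq) is printed for contrast with those of Dysf:
Myof: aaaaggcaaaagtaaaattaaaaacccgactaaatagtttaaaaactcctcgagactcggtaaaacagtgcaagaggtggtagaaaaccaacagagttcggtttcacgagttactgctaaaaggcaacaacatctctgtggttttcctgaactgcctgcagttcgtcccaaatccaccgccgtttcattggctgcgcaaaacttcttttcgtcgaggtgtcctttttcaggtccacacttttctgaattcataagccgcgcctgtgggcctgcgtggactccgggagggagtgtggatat
It held none of the 7 motifs and had a GC content of 46.3% with 15 CpG dinucleotides.

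Capn6, the calpain that lacks the catalytic cysteine and is known as a microtubule-binding protein, showed the same pattern as Dysf at a lower level. It had 5, 3 and 5 counts in the parental libraries, 166, 207 and 154 in KO_1E7 and 0, 0 and 2 in CRISPR_1G2. In CPM these were 0.137, 0.0828 and 0.139, then 4.69, 3.92 and 4.60, then 0, 0 and 0.0611. KO_1E7 lay above both other groups in every library, and CRISPR_1G2 lay below the parental line without overlap, on counts too small for a firm order.

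The Capn6 level in KO_1E7 was 36.3 times the parental level by summed counts, 527 against 13 (exact 95% interval 21.0 to 68.5), and the fitted log2 fold change was 5.16 ± 0.54. Against CRISPR_1G2, with 2 counts, the ratio was 199 with an interval of 54.9 to 1650, and for parental against CRISPR_1G2 it was 5.50 (1.24 to 50.2). Capn6 was number 4 of 15766 genes by log2 fold change for KO_1E7 against parental and number 12 against CRISPR_1G2. It is on the reverse strand of chromosome X (chrX:143802231-143827414), where the median over tested genes was -0.16. Its RefSeq window (chrX:143827363-143827662, GRCm38.p6) is printed with GC boxes and an AP-1 site in capitals:
Capn6: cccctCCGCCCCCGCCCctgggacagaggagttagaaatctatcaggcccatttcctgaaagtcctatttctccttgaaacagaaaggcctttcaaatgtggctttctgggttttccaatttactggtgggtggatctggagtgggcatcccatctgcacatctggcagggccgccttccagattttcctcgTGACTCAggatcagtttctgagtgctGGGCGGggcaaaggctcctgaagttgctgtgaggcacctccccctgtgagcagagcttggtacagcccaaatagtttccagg
The window held 3 GC boxes and 1 AP-1 site, a site that 7.81% of all windows hold. It also held 3 E-boxes, left in lower case. Capn6 thus shared the GC box with both Dysf windows and the E-box with the second, motifs found in 35.7 and 72.3% of all windows.

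Capn1 and Capn2, the large catalytic subunits of the ubiquitous calpains, differed little between the groups. Capn1 (chr19:5988546-6015825) was at 71.3, 86.3 and 66.1 CPM in the parental libraries, 72.3, 76.9 and 73.2 CPM in KO_1E7 and 80.3, 76.1 and 55.5 CPM in CRISPR_1G2. The KO_1E7 libraries lay inside the parental range, and the log2 fold change was -0.01 ± 0.17. Capn2 (chr1:182467260-182517608) was at 141, 153 and 116 CPM in the parental libraries, 168, 190 and 152 CPM in KO_1E7 and 160.4, 171 and 132 CPM in CRISPR_1G2. Its log2 fold change for KO_1E7 against parental was 0.32 ± 0.16, the ranges touching at 152 and 153 CPM. Against CRISPR_1G2 it was 0.14 ± 0.16.

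The 4 annexins overlapped between all groups. Anxa5, the annexin that binds phosphatidylserine and forms ordered arrays on it, was the most abundant of the 10 genes, with 1154, 1217 and 973 CPM in the parental libraries, 893, 1142 and 893 CPM in KO_1E7 and 1175, 1170 and 897 CPM in CRISPR_1G2. Anxa2, which pairs with S100a10 and binds actin, was at 812, 913 and 561 CPM in the parental libraries, 535, 1083 and 631 CPM in KO_1E7 and 1077, 1144 and 448 CPM in CRISPR_1G2. For both genes the spread inside each group was as wide as the distance between groups, and the log2 fold changes for KO_1E7 against parental were -0.19 ± 0.17 for Anxa5 and -0.02 ± 0.39 for Anxa2.

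Anxa1, also known as a mediator of glucocorticoid action, was at 102, 120.5 and 63.4 CPM in the parental libraries, 49.1, 99.99 and 62.1 CPM in KO_1E7 and 102, 126 and 73.4 CPM in CRISPR_1G2. KO_1E7 1 and 3 were the lowest of the 9 libraries for Anxa1, but KO_1E7 2 was near the parental level, and the log2 fold change was -0.44 ± 0.33 against parental and -0.52 ± 0.33 against CRISPR_1G2. Anxa6, the largest of the annexins, was at 27.9, 34.2 and 19.3 CPM in the parental libraries, 25.5, 29.1 and 21.9 CPM in KO_1E7 and 32.2, 46.4 and 24.8 CPM in CRISPR_1G2. Its log2 fold changes were -0.09 ± 0.27 and -0.44 ± 0.27. None of the 4 annexins showed the pattern of Dysf and Capn6.

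The annexin genes are spread over the genome: Anxa1 on chromosome 19 (chr19:20373428-20390944), Anxa2 on 9 (chr9:69453620-69491795), Anxa5 on 3 (chr3:36448923-36475894) and Anxa6 on 11 (chr11:54979108-55033445). The antisense gene Gm16144 overlaps Anxa2 and had 568 counts over all libraries, and without a stated strand setting their reads cannot be told apart. Those counts are few beside the 14666 to 57152 counts of Anxa2 per library. The Anxa2 window (chr9:69453433-69453732, forward strand, GRCm38.p6, RefSeq) is printed as that of an abundant gene with several of the motifs:
Anxa2: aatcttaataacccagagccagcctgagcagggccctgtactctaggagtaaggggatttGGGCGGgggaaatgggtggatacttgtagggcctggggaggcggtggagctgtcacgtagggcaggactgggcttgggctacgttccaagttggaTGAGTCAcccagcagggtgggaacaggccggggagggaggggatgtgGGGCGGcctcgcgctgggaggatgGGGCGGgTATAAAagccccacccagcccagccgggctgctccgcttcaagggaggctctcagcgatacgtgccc
It held 3 GC boxes, 1 AP-1 site and 1 TATA box, the last found in 13.6% of all windows. RefSeq windows were matched for 9 of the 10 genes, 12 windows in all, with 2 each for Dysf, Capn1 and Cav1. Of the 12, 7 held a GC box, 3 an AP-1 site, 3 a TATA box, 1 a TEAD site (14.7% of all windows), 8 an E-box (72.3%), 0 a CRE (1.79%) and 0 the CRE core (20.8%).

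Cav1 (chr6:17306335-17341452) was at 648, 686 and 537 CPM in the parental libraries, 435, 758 and 432 CPM in KO_1E7 and 712, 804 and 393 CPM in CRISPR_1G2. KO_1E7 2 was above all parental libraries and KO_1E7 1 and 3 were below them, so the groups overlapped, with a log2 fold change of -0.20 ± 0.30. Cav1 lies on the same chromosome as Dysf and did not share its pattern. Over the 9 libraries Cav1 moved with Anxa2 (r = 0.95) and Anxa5 (r = 0.95), and Anxa1 with Anxa5 (r = 0.93), values over the same 9 libraries and given as description.

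Libraries of the same group differed together. For the 8 genes other than Dysf and Capn6, parental 3 was the lowest parental library in 8 and CRISPR_1G2 3 the lowest CRISPR_1G2 library in 8, while KO_1E7 2 was the highest KO_1E7 library in 8. The matching shares over all genes are not given here, so these counts are not read as particular to the 8 genes. Parental 3 and CRISPR_1G2 3 are the libraries that stood apart on the first principal component, and KO_1E7 2 is the most deeply sequenced, with 51878289 counts. Both libraries that stood apart carry NSG in their column names, as does KO_1E7 3, which was the lowest KO_1E7 library in 4 of the 8. The part of NSG, the dates or depth in these levels was not tested.

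Among libraries that share a date or NSG, the values can be set side by side. Dysf was at 0.601 CPM in parental 1 and 21.3 in KO_1E7 1, which share a date, and at 0.945, 14.4 and 1.13 CPM in the parental, KO_1E7 and CRISPR_1G2 libraries named NSG. Capn6 was at 0.137 and 4.69 CPM in the first pair and at 0.139, 4.60 and 0.0611 CPM in the NSG libraries. Both genes were higher in KO_1E7 within each such set, 1 library against 1. As all KO_1E7 libraries lay above all others for both genes, each set had to show this, which adds no support. Anxa1 differed between the sets, with 102 and 49.1 CPM in the dated pair and 63.4 and 62.1 CPM in the NSG libraries of the parental line and KO_1E7. With a term for the date or NSG in the fit, an alternative chosen after seeing the data, the log2 fold change for KO_1E7 against parental was 4.32 ± 0.48 for Dysf, 4.94 ± 0.54 for Capn6, -0.57 ± 0.24 for Anxa1 and -0.37 ± 0.19 for Cav1.

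**Figure D2:**
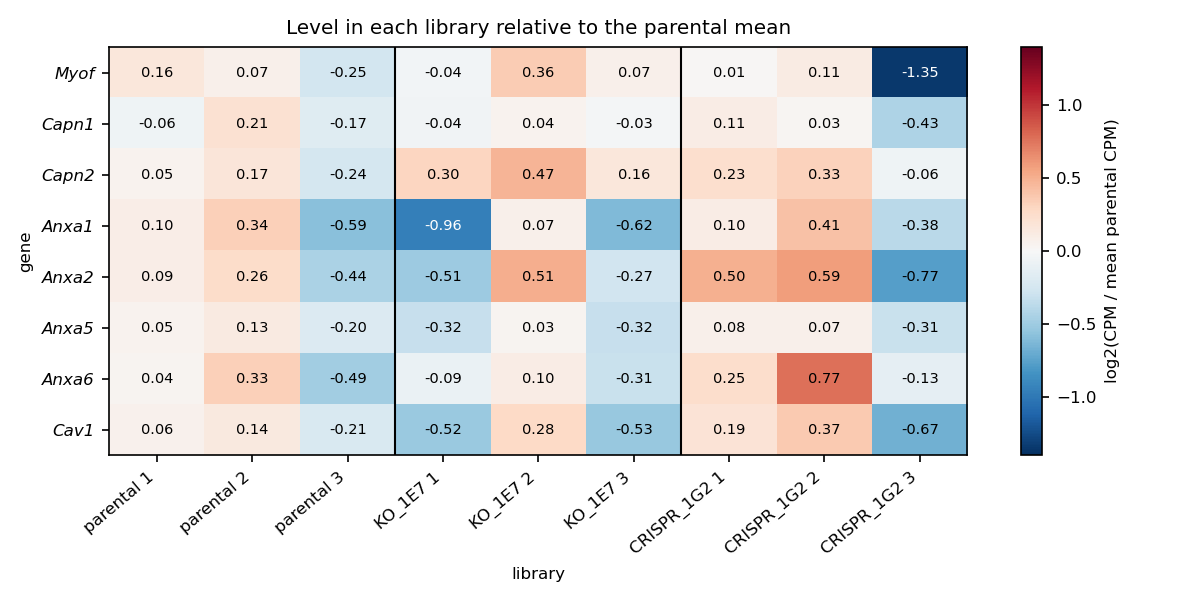
Level of the 8 genes other than Dysf and Capn6 in each library, as the log2 ratio to the gene's mean parental CPM, with genes in rows, libraries in columns and red for higher and blue for lower. Within their groups parental 3 and CRISPR_1G2 3 are the lowest in all 8 rows and KO_1E7 2 is the highest in all 8.

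Per kb of exon the order of the levels in the parental line was Anxa5 (627 ± 71.1 CPM per kb, SD, n = 3), Anxa2 (204 ± 48.6), Cav1 (181 ± 22.4), Myof (75.6 ± 10.9), Anxa1 (36.5 ± 11.2), Capn1 (23.4 ± 3.28), Capn2 (21.5 ± 3.04), Anxa6 (9.28 ± 2.55), Dysf (0.108 ± 0.0338) and Capn6 (0.0153 ± 0.00408). Neighbours whose libraries overlapped were Anxa2 with Cav1, Anxa1 with Capn1, and Capn1 with Capn2. Even in KO_1E7, Dysf and Capn6 kept the last places, at 1.98 ± 0.505 and 0.565 ± 0.0538 CPM per kb. Among the genes tested, Dysf stood at percentile 5.40 in the parental line and 37.7 in KO_1E7, and Capn6 at 0.228 and 23.5, so both were still in the lower part of the list in KO_1E7. The 4 annexins together held 729 to 987 CPM per kb in the parental libraries, 674 to 981 in KO_1E7 and 661 to 1029 in CRISPR_1G2, and Anxa5 made up 64.0 to 76.3% of that sum.

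Across the 10 genes, 2 were called higher and 0 lower for KO_1E7 against parental at an adjusted p under 0.05 in the fit over all genes, beside 5.42% of the 15766 genes called (2.54% higher, 2.87% lower). For KO_1E7 against CRISPR_1G2 the same 2 genes, Dysf and Capn6, were called higher and 0 lower, beside 12.7% of all genes (5.71% higher, 7.03% lower). For CRISPR_1G2 against parental 0 were called, beside 0.254% of all genes. In that comparison 1 gene, Capn6, had an unadjusted p under 0.05, beside 7.73% of all genes, and DESeq2 called 0, beside 0.841%. Because the genes were chosen with these comparisons known, nothing is read from these counts. The comparisons share groups, each group entering 2 of the 3.

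The median log2 fold change of the 10 genes was -0.02 for KO_1E7 against parental, 0.02 for CRISPR_1G2 against parental and -0.04 for KO_1E7 against CRISPR_1G2, beside -0.03, 0.02 and -0.03 over all genes. The libraries of 8 of the 10 genes overlapped in each KO_1E7 comparison, those of Dysf and Capn6 being the exceptions, beside 34.4 and 38.6% of all genes without overlap. For CRISPR_1G2 against parental 9 overlapped, and Capn6 did not, beside 13.1% of all genes without overlap (6.45% lower). These counts and medians describe a chosen list and are read no further.

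**Figure D3:**
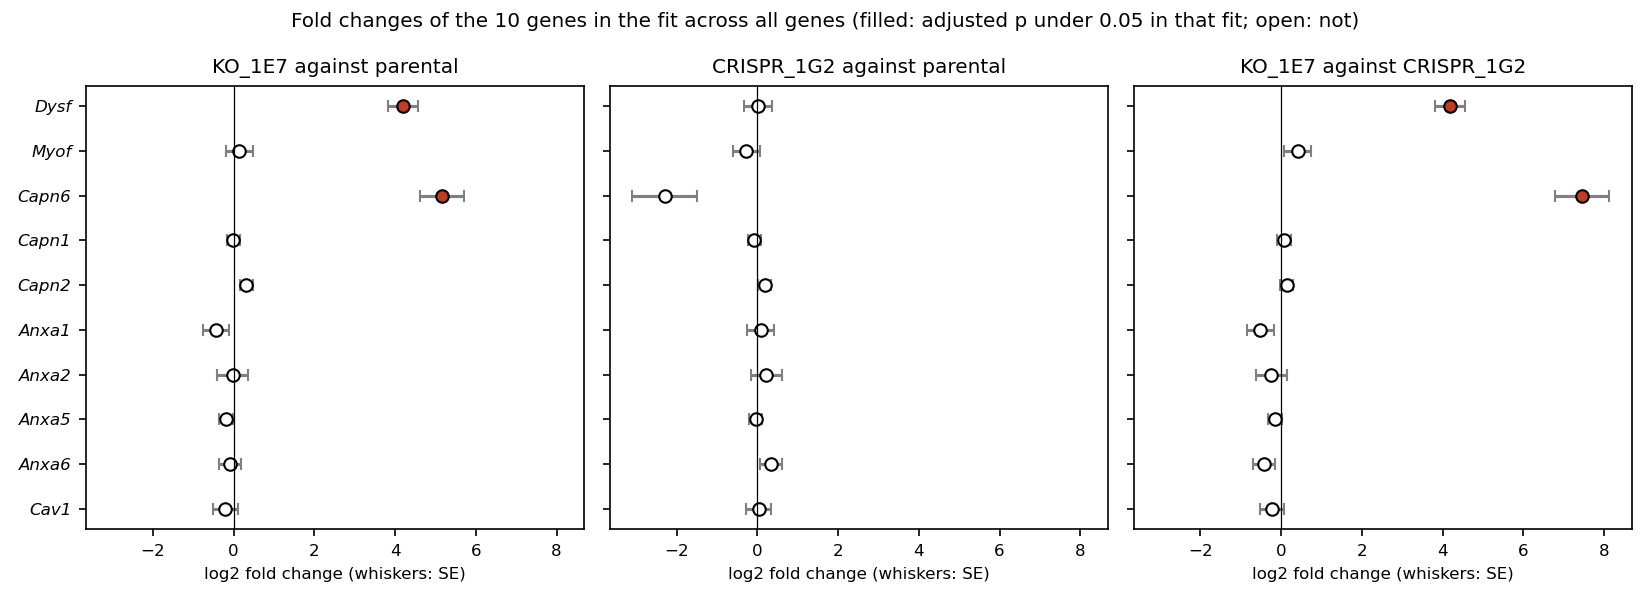
Log2 fold change of each of the 10 genes in the 3 comparisons, with whiskers of 1 SE from the edgeR fit and filled points for genes called at an adjusted p under 0.05. Dysf lies at 4.19 and 4.17 and Capn6 at 5.16 and 7.46 in the KO_1E7 comparisons, the last depending on the prior count since CRISPR_1G2 held 2 counts, and the other 8 genes lie within 0.52 of 0.

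The number called among the other 8 changed with the libraries kept. Without parental 3, CRISPR_1G2 3 and KO_1E7 2, leaving 2 libraries a group, 6 of the 10 were called for KO_1E7 against parental, beside 28.3% of all genes. The 4 called lower, beside 15.6% of all genes, were Anxa1 (log2 fold change -1.0 ± 0.15), Cav1 (-0.62 ± 0.10), Anxa2 (-0.56 ± 0.11) and Anxa5 (-0.40 ± 0.09). In the same setting 7 were called for KO_1E7 against CRISPR_1G2, Anxa6 joining the lower ones, beside 35.5% of all genes (18.4% lower). That setting leaves out the lowest parental, the lowest CRISPR_1G2 and the highest KO_1E7 library of each of these genes. The choice of libraries therefore favoured the lower direction in KO_1E7, and the calls are no support for a difference. Without parental 3 and CRISPR_1G2 3 alone, 2 and 3 of the 10 were called, beside 21 and 29.1% of all genes.

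To set the 10 genes beside the rest of the repair machinery, 81 other genes in 8 lists were read, of which 67 were tested. For KO_1E7 against parental 0 rose and 3 fell, 4.48% against 5.42% of all genes, with a median log2 fold change of 0.04. For KO_1E7 against CRISPR_1G2 2 rose and 3 fell, 7.46% against 12.7%, with a median of -0.07. For CRISPR_1G2 against parental none passed edgeR's adjusted threshold, beside 0.254% of all genes, and DESeq2 called 0, beside 0.841%. An unadjusted p under 0.05 was found for 5, beside 7.73% of all genes, and the median was 0.11. Without parental 3 and CRISPR_1G2 3 the counts became 16 (7 higher, 9 lower) and 17 (7 higher, 10 lower) for the KO_1E7 comparisons, beside 21 and 29.1% of all genes. The first count was 24.2% of the 66 repair genes tested there. Counts thus depended on those libraries, as they did over all genes.

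**Figure D4:**
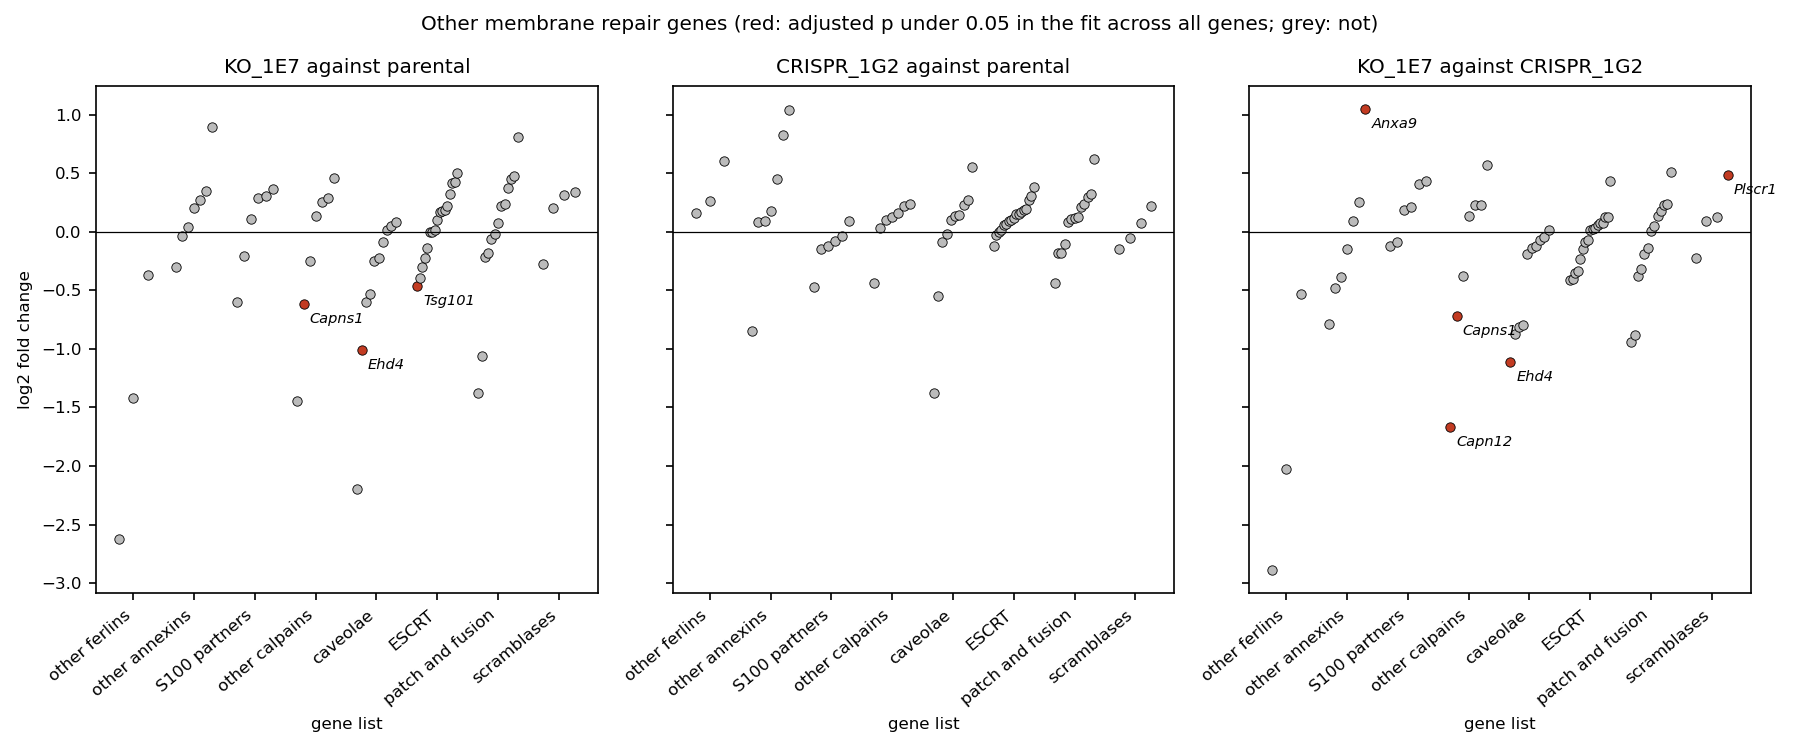
Log2 fold change of the 67 tested genes of the 8 other repair lists, 1 panel per comparison and 1 point per gene, with genes at an adjusted p under 0.05 in red and named. For KO_1E7 against parental these are Ehd4 (-1.01), Capns1 (-0.62) and Tsg101 (-0.46), and no point is red for CRISPR_1G2 against parental.

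Of the 7 tested other calpain genes, Capns1, the small regulatory subunit that pairs with the products of Capn1 and Capn2, was at 262, 269 and 243 CPM in the parental libraries, 161, 183 and 159 CPM in KO_1E7 and 303, 297 and 230 CPM in CRISPR_1G2. KO_1E7 lay below both groups without overlap. Capns1 fell by 0.62 on the log2 scale against parental (SE 0.14, adjusted p = 0.0393, edgeR quasi-likelihood test with Benjamini-Hochberg adjustment) and by 0.72 against CRISPR_1G2 (adjusted p = 0.0139). The first call ended without any 1 library other than CRISPR_1G2 3 (edgeR adjusted p 0.0651 to 0.193) and without the filter (0.101). The second ended without KO_1E7 1 or 3 or CRISPR_1G2 1 or 2 (0.0558 to 0.0829) and with the date term (0.0627). Capn12, a calpain described in the hair follicle, was at 0.459 ± 0.114 CPM in KO_1E7 and 1.47 ± 0.581 in CRISPR_1G2 and fell by 1.67 on the log2 scale (edgeR adjusted p = 0.0312), a call that ended without parental 1, any KO_1E7 library or CRISPR_1G2 2 (0.0512 to 0.131) and with the date term (0.130). The 6 untested calpain genes, Capn3 among them, had at most 16 counts in any library.

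Of the 10 tested caveolar genes, Ehd4, an ATPase gene of the family that stabilises caveolar necks and tubulates endosomes, was at 92.9, 78.6 and 78.7 CPM in the parental libraries, 41.0, 45.9 and 37.0 CPM in KO_1E7 and 95.6, 89.0 and 83.3 CPM in CRISPR_1G2. Every KO_1E7 library was far below every other. Ehd4 fell by 1.01 on the log2 scale against parental (SE 0.13, edgeR adjusted p = 0.0111) and by 1.11 against CRISPR_1G2 (adjusted p = 0.00290). The call against parental ended without KO_1E7 1 (0.0628) or KO_1E7 3 (0.0760), and that against CRISPR_1G2 held under all 19 alternatives (adjusted p at most 0.0263). Cavin1, the cavin most abundant here, ran from 202 to 461 CPM over the 9 libraries and did not pass.

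Of the 17 genes of the endosomal sorting complex (ESCRT), which pinches off damaged membrane, Tsg101, the ESCRT-I subunit that binds ALIX, fell by 0.46 on the log2 scale in KO_1E7 against parental (SE 0.11, edgeR adjusted p = 0.0488). It was at 75.7, 66.3 and 69.2 CPM in the parental libraries and 51.6, 53.9 and 48.0 CPM in KO_1E7, without overlap. The call was lost in 13 of 19 alternatives. It ended without any 1 library other than CRISPR_1G2 3 (adjusted p 0.0821 to 0.235), and also with RLE size factors (0.0538), without the filter (0.219), with the 2 groups alone (0.0610), without the third libraries (0.0542) and with the date term (0.0694). Pdcd6ip, which encodes ALIX, was at 206 to 280 CPM and did not pass.

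Capns1, Tsg101 and Capn12 all lie on chromosome 7. Over its 1240 tested genes the median was -0.45 on the log2 scale for KO_1E7 against parental and -0.53 against CRISPR_1G2, with 133 and 274 called lower and 15 and 24 higher. The 9 tested repair genes on chromosome 7 had medians of -0.46 and -0.34. The part of the chromosome in these 3 calls was not tested. Ehd4 lies on chromosome 2, where the medians were -0.19 and -0.27. Of its 1220 tested genes, 54 and 152 were called lower and 6 and 24 higher. The part of that chromosome in the Ehd4 calls was not tested either.

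The other annexins and the scramblases each gave 1 call. Anxa9, an annexin without functional calcium-binding sites, was at 12.2 ± 1.03 CPM in KO_1E7 and 5.92 ± 1.96 in CRISPR_1G2 (log2 fold change 1.05 ± 0.26, edgeR adjusted p = 0.0321), and at 10.7 ± 0.825 CPM in the parental line. Plscr1, a phospholipid scramblase gene, was at 78.5 ± 5.45 CPM in KO_1E7 and 56.1 ± 5.80 in CRISPR_1G2 (0.48 ± 0.12, edgeR adjusted p = 0.0361). The Anxa9 call ended without parental 1, any KO_1E7 library, CRISPR_1G2 1 or CRISPR_1G2 2 (adjusted p 0.0544 to 0.121), and that of Plscr1 without any 1 library other than parental 3 (0.0520 to 0.117). Both also ended with the 2 groups alone (0.0650 and 0.0642) and with the date term (0.0529 and 0.0742), and that of Plscr1 without the filter (0.110).

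The remaining lists had no call in any comparison. Among the other ferlins Fer1l6 was the most abundant, at 8.39, 7.23 and 9.59 CPM in the parental libraries, 1.16, 7.50 and 0.627 CPM in KO_1E7 and 14.7, 16.7 and 6.87 CPM in CRISPR_1G2. KO_1E7 1 and 3 were low and KO_1E7 2 at the parental level, and the log2 fold change of -1.42 ± 0.79 did not pass (edgeR adjusted p = 0.314). S100a6, from the 6 S100 partners of the annexins, ran from 277 to 506 CPM. Myh9, which encodes a non-muscle myosin heavy chain and led the patch and lysosome fusion list, ran from 984 to 1513 CPM. Trim72, the muscle repair gene MG53, did not pass the filter and had at most 42 counts in any library.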

How the data were processed

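Raw read counts per gene in 9 libraries were used, as the authors deposited them. Per the labels' protocols, RNA was extracted on a Qiasymphony and libraries were made with an oligo-dT NEBNext Ultra II RNA kit. Per the submitters' processing notes, bcl2fastq 2.17, STAR 2.5.2b, featureCounts from Subread 1.5.2 and DESeq2 were used with GRCm38. For the strand setting and annotation release, nothing is given in the sources used here. The table of the whole series and the tables per sample differed in 0 values. The 92 spike-in rows (0.344 to 0.820% of counts) entered neither library sizes nor tests.

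Groups followed the genotype labels. Genes were kept by filterByExpr, scaled by TMM and fitted over all 3 groups with edgeR 4.0.16 (R 4.3.3) by the quasi-likelihood test, with Benjamini-Hochberg adjustment over all 15766 genes and a threshold of 0.05. The fit was run on simulated data with the same spread for all genes and no libraries set apart. The real libraries differ from that setting, so the run says nothing on their calls. No library was a copy of another. Log2 CPM for correlations and principal components used a prior count of 2. Exact 95% intervals of count ratios cover counting error only, as reads carried no molecular identifiers. With 3 against 3 libraries, an exact permutation test cannot go below p = 0.1.

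The 10 genes and all gene lists were chosen with earlier results of these data known. All 10 were named. Of the other repair lists, the genes called (up to 4 per list and comparison) were named, or the most abundant gene of a list with none, together with the 5 genes most correlated with Dysf and the 2 nearest tested genes on each side of it. Trim72, Cavin1, Pdcd6ip and Capn3 were named after their values were seen, as were the cell type markers given by name. Alternatives were DESeq2 1.42.0, other scaling, no filter, the 2 groups compared alone, a replicate block, a term for the word NSG in the column names, and libraries left out. A term for the date or NSG in the column names was added after seeing the data. Only part of the same-numbered libraries share a date or NSG, and neither is stated to mark a culture or day, so the reported fit has no block. No protein sequences were used here.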

Additional observations from a re-analysis of the deposited data

How the results depend on the processing

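Of 569 log2 fold changes of the 10 genes under 19 alternatives, 548 moved by less than 1 SD between replicates and 21 moved further. The sign differed from the reported one in 47, all among differences that were not called, and in 0 of the called ones. Dysf ranged from 3.96 to 4.41 for KO_1E7 against parental and from 3.95 to 4.47 against CRISPR_1G2, and Capn6 from 4.94 to 5.36 and from 6.63 to 10.3. Of 190 values of other named genes, 135 kept their call and 55 lost it, 13 of them for Tsg101 and 11 for Plscr1. Counts of calls moved by over 1.5 times in 62 of 171 cases. For KO_1E7 against parental, 854 genes became 2036 with DESeq2, 546 without the filter, 2060 with the NSG term, 1855 with the date term, 1737 without the third library of each group, 3330 without parental 3 and CRISPR_1G2 3 and 4423 without KO_1E7 2 as well, and 24 to 1998 when 1 library was left out. The 3 other repair genes called became 11, 9, 7, 10, 16 and 24 with DESeq2, the NSG term, the date term and those 3 sets left out, and 0 to 9 without 1 library. The counts before 24 were 15.1, 13.4, 10.4, 15.2 and 24.2% of the repair genes tested. Over all genes the matching shares were 11.1, 13.1, 11.8, 11 and 21%. Beside the count of 24, 28.3% of all genes were called. For CRISPR_1G2 against parental, 40 genes (0 higher, 40 lower) became 174 (37 higher, 137 lower) with DESeq2, 16 with those groups alone and 326 without the 3 libraries, where 2 repair genes were called, and 15 to 71 without 1 library (42 higher and 29 lower without parental 1). For KO_1E7 against CRISPR_1G2, 2010 genes became 3068, 3330, 3111, 4615 and 5557 with DESeq2, the NSG term and the same sets left out, and 453 to 2332 without 1 library. The 5 repair genes called became 10, 13, 17 and 24 with the NSG term and those sets, and 1 to 5 without 1 library. The 10 genes gave 6 and 7 calls without the 3 libraries. The causes were not tested. Same-numbered libraries had correlated deviations from -0.0497 to 0.647 over 9 pairs, not all above 0.1, so the numbers were not taken to pair them, although the third libraries share NSG and 1 pair a date. With the replicate block the calls were 1298 genes and 5 repair genes for KO_1E7 against parental and 2614 genes and 8 repair genes against CRISPR_1G2. At 98 parental and 85 CRISPR_1G2 counts for Dysf, and 13 and 2 for Capn6, depth limits the size of their ratios.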

Other observations

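Ahnak and its relative Ahnak2, which encode giant scaffold proteins that bind dysferlin or S100a10, were picked out after their values were seen. Ahnak was at 1490, 1188 and 1543 CPM in the parental libraries, 519.6, 995 and 505 CPM in KO_1E7 and 1261, 1387 and 1079 CPM in CRISPR_1G2, so KO_1E7 was the lowest group without overlap. Its log2 fold change of -1.06 ± 0.27 against parental did not pass the edgeR quasi-likelihood test (adjusted p = 0.0569, Benjamini-Hochberg). Ahnak2 had a log2 fold change of -1.38 ± 0.45 against parental (edgeR adjusted p = 0.106), and its KO_1E7 libraries overlapped those of CRISPR_1G2. Of the 13 tested genes of the patch and lysosome fusion list, 6 did not overlap between KO_1E7 and the parental line, beside 34.4% of all genes. Among the 6, Vamp7, Vamp3, Stx2 and Snap23 were higher in KO_1E7, with log2 fold changes of 0.81, 0.47, 0.37 and 0.22, none of them called.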
